A study of Mus musculus with 24 samples.

Results

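Dispersed mouse pancreatic islet cells were exposed to palmitate (PA), a saturated fatty acid, or to its bovine serum albumin vehicle (BSA) after 5'tRFGlu(CTC) had been blocked with an antisense oligonucleotide (ASO) or left alone, and the question was whether the response to PA differed between these cells. For each gene the measurement was (αGlu PA − αGlu BSA) − (Ctr PA − Ctr BSA) on the log2 scale, hereafter the difference, so that a positive value means that the αGlu cells moved upwards, relative to the Ctr cells, on going from BSA to PA. All 24 of the 24 poly(A)-selected RNA-seq libraries entered it, 6 in each of 4 groups. All libraries came from wild type mice, and the study's methods give C57BL/6NRj animals of both sexes aged 12–14 weeks. Every group received 50 pmol of an ASO: Ctr BSA and Ctr PA a control inhibitor, αGlu BSA and αGlu PA the inhibitor of the fragment. The PA groups were cultured for 48 h with 0.5 mM PA and the BSA groups for the same time with 0.75% BSA. Each group had 3 libraries in batch 1 (S1–S12) and 3 in batch 2 (S13–S24), and the records used here do not say what a batch is. Whole dispersed islets were transfected, so the readout sums over endocrine and non-endocrine cells, and a fall in the RNA of one cell type cannot be told apart from a loss of cells of that type.

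5'tRFGlu(CTC) is a fragment cut from the 5' end of the transfer RNA that reads glutamate codons. Fragments of this kind are released when a nuclease such as angiogenin cleaves a mature tRNA, often under stress, and they can bind RNA-binding proteins and other RNAs. The αGlu ASO is a locked nucleic acid oligonucleotide that pairs with the 5' part of the fragment. Long exposure to PA, called lipotoxicity when it harms β-cells, switches islet cells towards fatty acid oxidation through PPAR nuclear receptors, activates the stress response of the endoplasmic reticulum and can end in death of β-cells. The ASO and the stretch it was designed against are shown because the only difference between both arms is this oligonucleotide. Capitals in the second line mark the 20 of 21 bases, positions 2–21, that pair with the ASO, and both are written 5' to 3'.
αGlu ASO: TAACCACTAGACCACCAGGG
5'tRFGlu(CTC) target: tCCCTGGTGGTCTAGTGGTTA

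The libraries held 18214719–35001979 counts, and 15916 of 41549 genes were high enough to be tested. The islet identity of the material was clear: the summed level of 32 β-cell genes lay between 102025 and 165444 CPM in every library. Exocrine RNA varied far more, since 37 acinar genes summed to between 474 (S23) and 43116 CPM (S9). The mean log2 CPM of the tested acinar genes was 5.69–8.385 in batch 1 and 2.28–3.53 in batch 2. The part of this gap in differences between the batches was not tested. CPM values are counts relative to library size, scaled by the TMM factors of edgeR except in such sums over genes. The median of Ins2, one of the mouse insulin genes, was 68992 CPM with BSA and 49285 with PA in Ctr cells, and 63940 and 55283 in αGlu cells. Several libraries stood apart from their groups. S21 (Ctr BSA) had the highest summed macrophage markers of all libraries. S8 had the highest in αGlu PA. In S1 (Ctr BSA) 15.9% of counts fell on ribosomal RNA genes, against a group median of 1.79%, and at most 2.90% in any library of the other groups. For the results that rest most on these libraries, values without them are given as well.

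No gene's response to PA differed between αGlu and Ctr cells after correction for multiple testing. With edgeR's quasi-likelihood test and Benjamini-Hochberg adjustment, 0 of 15916 genes had an adjusted p below 0.05, and the smallest adjusted p was 0.999. At an unadjusted p below 0.05 there were 332 genes, 2.09% of those tested, of which 168 had a positive difference (1.06%) and 164 a negative one (1.03%). The study says that the groups of 1 replicate came from the same animal, but no label ties libraries to animals. When each run of consecutively numbered libraries (S1–S4, S5–S8 and so on, 1 of each group) was taken as a block, which is an assumption, 0 genes again had an adjusted p below 0.05 (smallest 0.971), and 525 had an unadjusted p below 0.05. The smallest unadjusted p in the fit without that block, 0.000654, belonged to Proser3, whose difference was 0.57 with a standard error (SE) of 0.145. A gene was counted as called when its difference exceeded 1 in absolute log2 terms with an unadjusted p below 0.05. This gave 104 genes, 0.653% of those tested, with 68 positive (0.427%) and 36 negative (0.226%). None of these differences passed the adjusted threshold, so the values that follow describe them and do not establish them one by one.

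For most genes the data bounded the difference, but not tightly beside typical PA responses. The 95% interval of the difference lay within ±1 for 12535 genes, or 78.8%, and within ±0.5 for 9571 genes, or 60.1%. Genes whose average PA effect had an adjusted p below 0.05 (edgeR) had median Ctr responses of 0.27 if raised and −0.38 if lowered. An interval within ±1 or ±0.5 can therefore still hold the loss of such a response. The median difference over all genes was −0.01, and 48.5% of genes were positive. The called genes were a less precisely measured subset. They had a median of 18.5 counts, where all tested genes had 454, and a median SE of 0.722 against 0.140.

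**Figure D1:**
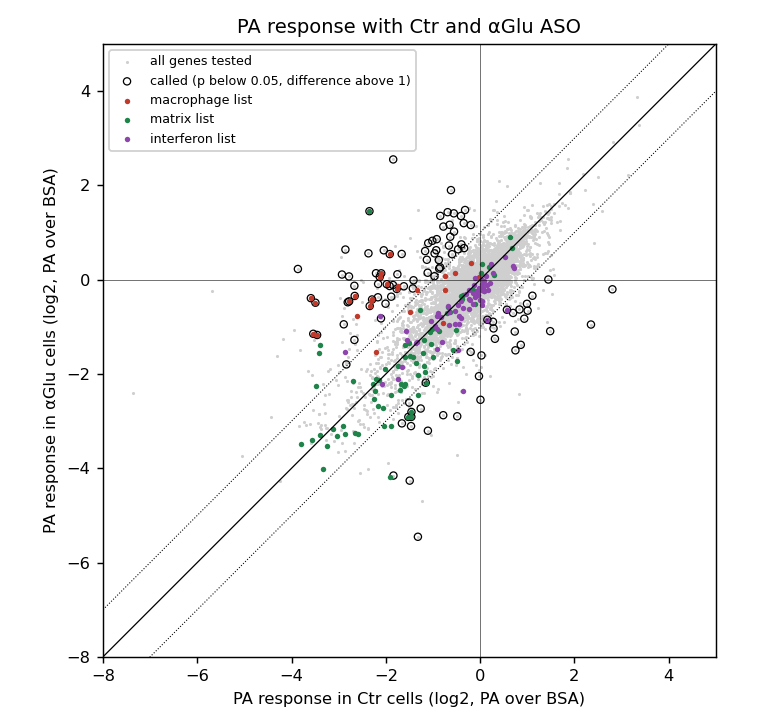
Each point is 1 of the 15916 genes tested, with its PA response (log2, PA over BSA) in Ctr cells on the horizontal axis and in αGlu cells on the vertical axis; rings mark the 104 called genes, colours mark the macrophage, matrix and interferon lists, the solid line marks equal responses and the dotted lines a difference of 1. Most genes follow the solid line, and macrophage genes lie above it, with a median response of −2.10 in Ctr and −0.34 in αGlu cells.

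As a set, genes that PA changed strongly had nearly equal median responses in both arms. The PA-responsive genes were chosen on the mean of both PA responses, which uses no information about their difference, at an absolute log2 value above 1 and an adjusted p below 0.05 (edgeR, Benjamini-Hochberg). There were 882 of them, 5.54% of the genes tested, with 108 raised and 774 lowered. In 416 of the 882, or 47.2%, the response was smaller in αGlu cells than in Ctr cells. The share was 63 of 108 (58.3%) among raised genes and 353 of 774 (45.6%) among lowered genes. The median response of raised genes was 1.33 in Ctr and 1.26 in αGlu cells, and that of lowered genes was −1.49 and −1.54. At an unadjusted p below 0.05, 21 of the 882 had a smaller and 21 a larger response in αGlu cells, and all of these were genes lowered by PA. Single genes of this set were less closely bounded than the set, since the 95% interval of the difference lay within ±1 for 205 of them, or 23.2%.

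A score per library, the mean log2 CPM over the genes, showed the same for each set. The score of the 108 raised genes was 0.474 ± 0.200 in Ctr BSA and 1.84 ± 0.124 in Ctr PA (mean ± SD, n = 6). It was 0.499 ± 0.178 in αGlu BSA and 1.78 ± 0.117 in αGlu PA. The score of the 774 lowered genes was 1.54 ± 0.364, 0.00167 ± 0.406, 1.42 ± 0.444 and −0.131 ± 0.535 in the same order. The difference between the arms was −0.08 for raised genes, with −0.12 in batch 1 and −0.04 in batch 2. For lowered genes it was −0.02 over all libraries but 0.21 in batch 1 and −0.25 in batch 2, so the batches had opposite signs. The share of PA-responsive genes with a smaller response in αGlu cells was likewise 64.0% when only batch 1 was used and 42.7% when only batch 2 was used.

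The leading PA genes show how closely the arms matched. Cpt1a (carnitine palmitoyltransferase of the outer mitochondrial membrane, which admits long-chain fatty acids to oxidation) lay at 29.98–43.3 CPM in Ctr BSA and 154–175 in Ctr PA. In αGlu cells it lay at 29.1–47.6 CPM with BSA and 156–186 with PA. The treatments did not overlap in either arm, and the ranges of both arms nearly coincided. PA raised Cpt1a by 2.18 (SE 0.0803) in Ctr and 2.25 (SE 0.0803) in αGlu cells, and the 95% interval of the difference, 0.07, ran from −0.16 to 0.29. Aldh9a1, an aldehyde dehydrogenase of carnitine synthesis, rose by 1.39 and 1.41, with a difference of 0.02 (−0.12 to 0.17). Rassf2, a Ras-association domain protein, differed by −0.11 (−0.31 to 0.10), and Pxmp4, a peroxisomal membrane protein, by −0.12 (−0.35 to 0.11). Among the genes that PA lowered most clearly, Col4a3, a basement membrane collagen chain, fell by 3.57 in Ctr and 3.40 in αGlu cells. Its difference was 0.17 (−0.66 to 1.00). Akap5, an anchoring protein for protein kinase A, differed by −0.13 (−0.70 to 0.44), and Ehd2, an ATPase of caveolae, by −0.10 (−0.56 to 0.36). The last leading gene, Gm49394, overlaps Igf2 on the same strand, and how the counting shared out their reads is unknown here. It differed by 0.36 (−0.03 to 0.75).

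The stress pathways for which PA is known had median responses that nearly coincided in both arms. Of 33 genes of the endoplasmic reticulum stress and ATF4–CHOP response, 0 had an unadjusted p below 0.05 for the difference. The median PA response was 0.27 in Ctr and 0.25 in αGlu cells, and the median difference was 0.01. All 33 intervals lay within ±1, a bound wider than these median responses. Members ranged from −0.17 for Dnajb9, a co-chaperone of the endoplasmic reticulum, to 0.33 for Gdf15, a secreted stress cytokine. Atf4, the transcription factor at the centre of this response, had a difference of 0.00. Hspa5, the chaperone BiP, had −0.06, Trib3, an ATF4 target that dampens AKT signalling, 0.11 and Atf3, a stress-induced transcription factor, 0.04. No value is given here for Chop (Ddit3), which the study measured by qPCR in mouse islet cells.

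Of 45 genes of fatty acid oxidation and PPAR targets, none differed at an unadjusted p below 0.05. PA passed the adjusted threshold for 30 of them in Ctr and 32 in αGlu cells, with median responses of 0.46 and 0.38. The median difference was 0.01, and 39 of 45 intervals lay within ±1. Pdk4, the kinase that closes pyruvate dehydrogenase, differed by −0.10, Angptl4, a secreted inhibitor of lipoprotein lipase, by −0.08 and Plin2, a lipid droplet coat protein, by −0.01. The 24 cholesterol synthesis genes had a median difference of 0.01, and their intervals all lay within ±1. The 27 antioxidant genes driven by NRF2 had a median of 0.08, and 26 of them were positive in batch 1 against 12 in batch 2.

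The BCL2 family, whose members promote or restrain mitochondrial apoptosis, showed no gene of 18 at an unadjusted p below 0.05 and a median difference of 0.04. Bcl2l1 encodes the survival protein BCL-XL. Its medians were 52.0 CPM with BSA and 50.6 with PA in Ctr cells, and 46.7 and 47.6 in αGlu cells. The groups overlapped throughout, and the difference was 0.04 (−0.18 to 0.26). Bcl2 differed by 0.02 (−0.57 to 0.62). The other genes that the study followed in these cells gave small RNA values too. For Neurod1, Vamp8 and Tax1bp3 the study reported protein levels from mass spectrometry, which RNA counts do not measure. Ang, which encodes angiogenin, rose with PA by 0.75 in Ctr and 0.84 in αGlu cells and differed by 0.09 (−0.30 to 0.47). It shares its locus with Rnase4 on the same strand, so the division of reads between them is uncertain. Neurod1, a β-cell transcription factor, differed by −0.14 (−0.34 to 0.07), Clcn3, a chloride–proton exchanger of vesicles, by −0.16 (−0.36 to 0.04) and Vamp8, a vesicle fusion protein, by 0.05 (−0.16 to 0.27). Slc2a8 (a hexose transporter) and Tax1bp3 (a PDZ-domain protein) had differences of 0.04 and 0.02.

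**Figure D2:**
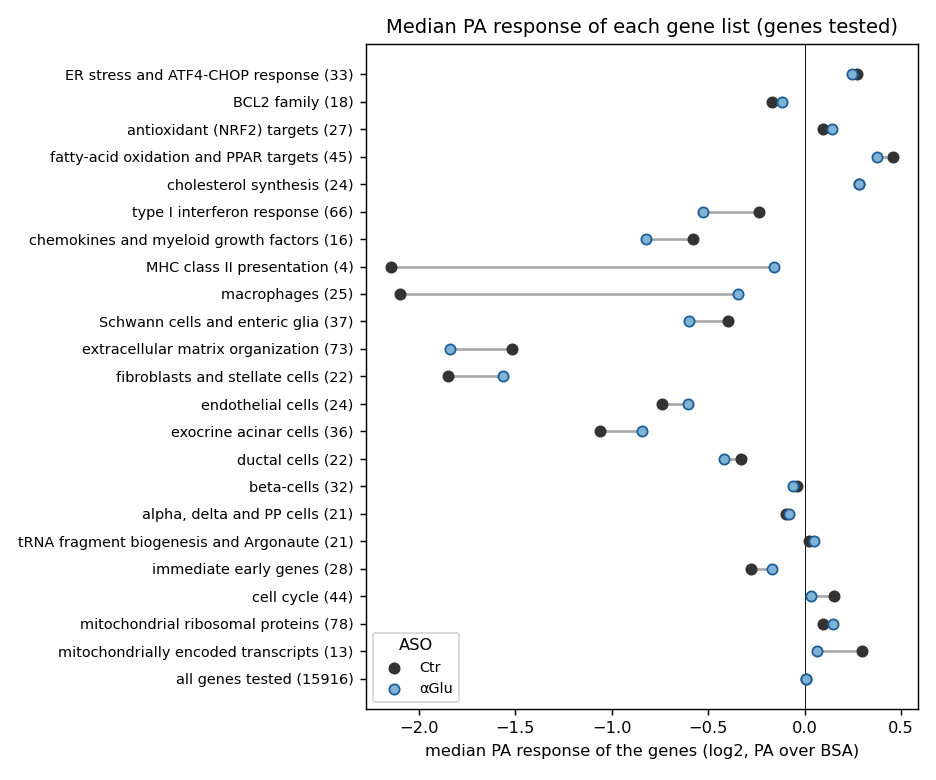
Median PA response (log2, PA over BSA, horizontal axis) of the tested genes of each of 22 lists and of all genes, with the number of genes in parentheses; dark points are Ctr cells and light points αGlu cells, and grey lines join both. Only the macrophage genes (−2.10 and −0.34) and the 4 MHC class II genes (−2.14 and −0.16) have points far apart.

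Across 22 gene lists, 17 had no gene at an unadjusted p below 0.05, and 20 had a median difference below 0.25 in absolute value. Genes of β-cells (32 genes) had a median of −0.00, and each of their 32 intervals lay within ±1. Ins1 differed by 0.12 (−0.14 to 0.38), Ins2 by 0.13 (−0.15 to 0.41) and Gcg, the glucagon gene of α-cells, by −0.04 (−0.47 to 0.39). The 21 genes of α-, δ- and PP-cells had a median of 0.05, the 22 ductal genes −0.01 and the 24 endothelial genes −0.13. The 36 acinar genes had a median of 0.17, with 32 positive in batch 1 and 15 in batch 2. For 37 Schwann cell and enteric glia genes the median was −0.15, with 32 positive in batch 1 and 7 in batch 2. Omission of single libraries gave medians from −0.32 to −0.02. Without S9 and S21 the median was −0.58, with 12 genes negative and 0 positive at an unadjusted p below 0.05 (edgeR). Weighting libraries by their estimated quality in limma gave −0.52, with 6 negative and 0 positive. The 1 glial gene that was called, Fign, a microtubule-severing ATPase, had a difference of −1.64 and remained called in 10 of the 24 fits that left out 1 library.

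Most lists of growth and RNA biology were flat. The 21 genes of tRNA fragment biogenesis and Argonaute proteins had a median of 0.00, the 28 immediate early genes −0.02, the 44 cell cycle genes −0.03 and the 78 mitochondrial ribosomal proteins 0.04. The 13 transcripts of the mitochondrial genome all had a negative difference, from −0.31 (mt-Nd6, a complex I subunit) to −0.15 (mt-Co2, a cytochrome oxidase subunit), and none passed an unadjusted p of 0.05. Their median was −0.23. It was −0.03 in batch 1 and −0.42 in batch 2, and −0.03 when the Ctr PA library S23 was left out.

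Macrophage genes made up the largest coherent group of called genes. Islets hold a resident population of macrophages that sample β-cell products, clear debris and present antigen. Of 28 macrophage markers 25 were tested, and 13 of them were called with a positive difference, or 52.0%, beside 0.427% of all genes. The median difference was 1.83, and 24 of 25 were positive. PA lowered 16 of the 25 in Ctr cells at an adjusted p below 0.05 (edgeR) but 1 in αGlu cells, where the median response was −0.34 against −2.10 in Ctr cells. These counts from each arm do not test the difference between the arms, for which no marker reached an adjusted p below 0.05. With BSA 23 of 25 markers had a lower fitted level in αGlu than in Ctr cells (median −0.88), and with PA 24 of 25 had a higher one (median 0.69), so both treatments contributed. The signal behind this was small, since the 28 markers together summed to between 87.6 and 504 CPM.

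Cybb encodes the catalytic subunit of the phagocyte NADPH oxidase (GRCm38 chrX:9435252-9487771, minus strand). In Ctr BSA it ran from 1.28 CPM (S9) through a median of 3.25 to 11.5 (S21), and in Ctr PA from 0.0399 (S11) through 0.499 to 1.95 (S19). In αGlu BSA it ran from 0.349 (S10) through 2.04 to 3.43 (S14), and in αGlu PA from 0.323 (S12) through 1.16 to 2.20 (S8). The Ctr groups overlapped only in their tails, while the αGlu groups overlapped almost entirely. Cybb fell by 2.66 with PA in Ctr cells (SE 0.490, adjusted p 0.000223 by edgeR's quasi-likelihood test), and its response in αGlu cells was −0.34 (SE 0.477, adjusted p 0.637). The difference was 2.32 (SE 0.680, unadjusted p 0.00228, adjusted p 0.999). It was 3.74 for batch 1 and 1.14 for batch 2 and stayed called whichever library was left out.

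C1qb (chr4:136880129-136886187, minus strand) encodes a chain of complement C1q, which macrophages secrete. It lay at 0.826, 2.05 and 11.5 CPM (lowest, median and highest) in Ctr BSA and at 0.0716, 0.212 and 0.516 in Ctr PA. With αGlu the same figures were 0.106, 1.33 and 4.25 for BSA and 0, 0.452 and 3.67 for PA. The highest values belonged to S21 in Ctr BSA, S18 in αGlu BSA and S8 in αGlu PA, and the Ctr groups did not overlap. The difference was 3.20 (SE 1.13, unadjusted p 0.00913), and 1.61 without S8, where C1qb was no longer called. Fcgr3, an activating receptor for immunoglobulin G, differed by 2.32 (SE 0.793, unadjusted p 0.00733), and 1.65 without S8.

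Other genes of these cells, named after their values were seen, had the same pattern. Lyz2, the lysozyme of myeloid cells, had medians of 24.9 CPM with BSA and 3.21 with PA in Ctr cells, and 16.9 and 4.27 in αGlu cells, with highest values of 177 in S21 and 18.99 in S8. Its difference was 2.28 (unadjusted p 0.0278), and 1.06 without S8. Itgam, the integrin chain CD11b, differed by 2.39, or 1.30 without S8, and C1qc, another C1q chain, by 3.01, or 1.43 without S8. Neither these nor Lyz2 were called when S8 or S21 was left out. Apoe, a lipoprotein component that macrophages make in quantity but that was not on the marker list, had medians of 26.3 and 6.53 CPM in Ctr cells and 14.6 and 6.96 in αGlu cells. The Ctr groups of Apoe did not overlap, and its difference was 1.28 (unadjusted p 0.00876). Without S8 it was 0.92, and Apoe was no longer called. Cd300a, an inhibitory receptor of myeloid cells that entered by its p-value, differed by 1.91.

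Not every macrophage marker followed. Csf1r, the receptor for the growth factor on which macrophages depend, ran from 4.95 to 13.1 CPM in Ctr BSA and from 0.465 to 2.33 in Ctr PA, and from 4.76 to 7.58 in αGlu BSA and from 1.11 to 3.05 in αGlu PA. The treatments did not overlap in either arm. Csf1r fell by 2.20 in Ctr cells (adjusted p 8.05e-06) and by 1.54 in αGlu cells (adjusted p 0.000395, both by edgeR), and its difference of 0.66 had an interval from −0.20 to 1.53. Cd163, a scavenger receptor, had a difference of −0.14. C1qa lay at 51.3–127 CPM in all libraries, far above C1qb and C1qc, with a difference of 0.08 (−0.26 to 0.42), and whether all of its counts came from macrophages cannot be told from a count table.

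The macrophage result rested largely on 2 libraries. Without C1qa, the other 27 markers summed to 47.2–391.6 CPM in Ctr BSA (median 77.5, highest S21) and to 23.7–41.9 in Ctr PA (median 29.2). They summed to 28.7–114.8 CPM in αGlu BSA (median 67.9) and to 16.3–97.8 in αGlu PA (median 36.3, highest S8). In the medians, then, PA-treated cells lay below BSA-treated cells in both arms, and none of the 28 markers was at 0 in a whole group. The list's median difference was 0.96 with 2 genes called when S8 was left out, and 1.22 with 3 called when S21 was left out. Without both it was 0.52 with 1 called, and 21 of the 25 were still positive. It was 2.14 with 5 called in batch 1 alone and 0.97 with 1 called in batch 2 alone, so the sign was shared by the batches. Weighting libraries by their estimated quality in limma gave 0.53 with none called.

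**Figure D3:**
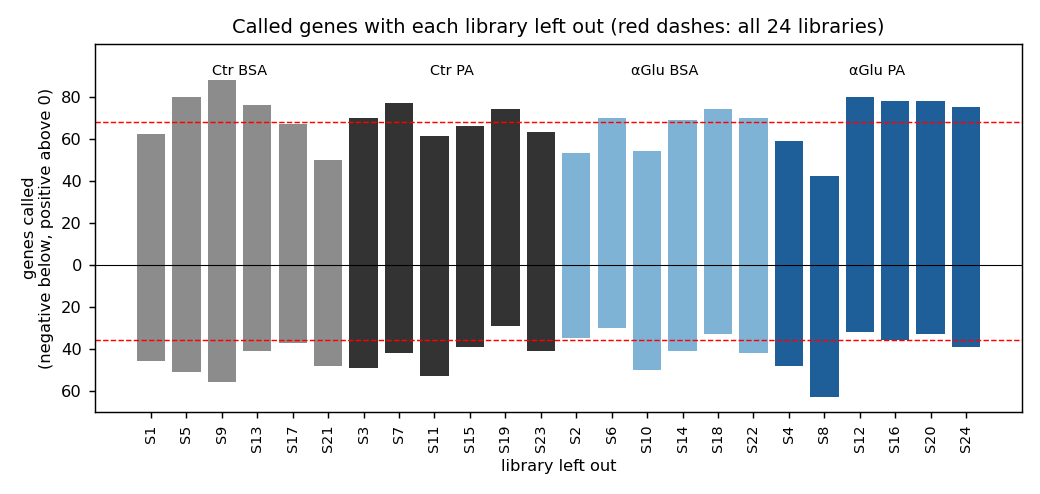
Number of called genes (vertical axis) with a positive difference, above 0, and a negative difference, below 0, in each fit that left out 1 of the 24 libraries (horizontal axis, coloured by group), with red dashes at 68 and 36 for all libraries. Counted anew in each fit, positive calls were fewest without S8 (42) and without S21 (50), and most without S9 (88).

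Antigen presentation by MHC class II rested on single libraries as well. Of 11 genes 4 were tested and 2 were called with a positive difference, beside 0.427% of all genes. H2-Aa, the alpha chain of I-A, was at 0.276–9.23 CPM in Ctr BSA, where S21 held the highest value and the median was 0.326. Its difference of 3.50 was 1.02 without S21. Cd74, the invariant chain, was at 1.45–12.8 CPM in Ctr BSA and differed by 1.24, or 0.50 without S21. Without S21 no gene of this list had an unadjusted p below 0.05, and the list's median was 0.69 in place of 1.14. Without the αGlu PA library S4 no gene of the list had one either, while the median was 1.22.

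The 68 called genes with a positive difference had one form. All 68 had a negative PA response in Ctr cells, 41 of them called as lowered there at the same thresholds, and in αGlu cells 2 were called as lowered and 8 as raised. Their median response was −1.76 in Ctr and 0.23 in αGlu cells. With BSA, all 68 lay lower in αGlu than in Ctr cells. Since these responses are parts of the measurement that chose the genes, they describe the genes and support nothing further. Counted anew in each fit, 42 genes were called with a positive difference without S8 and 50 without S21. Of the 68, 36 were no longer called without S8, and 36 without S21.

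**Figure D4:**
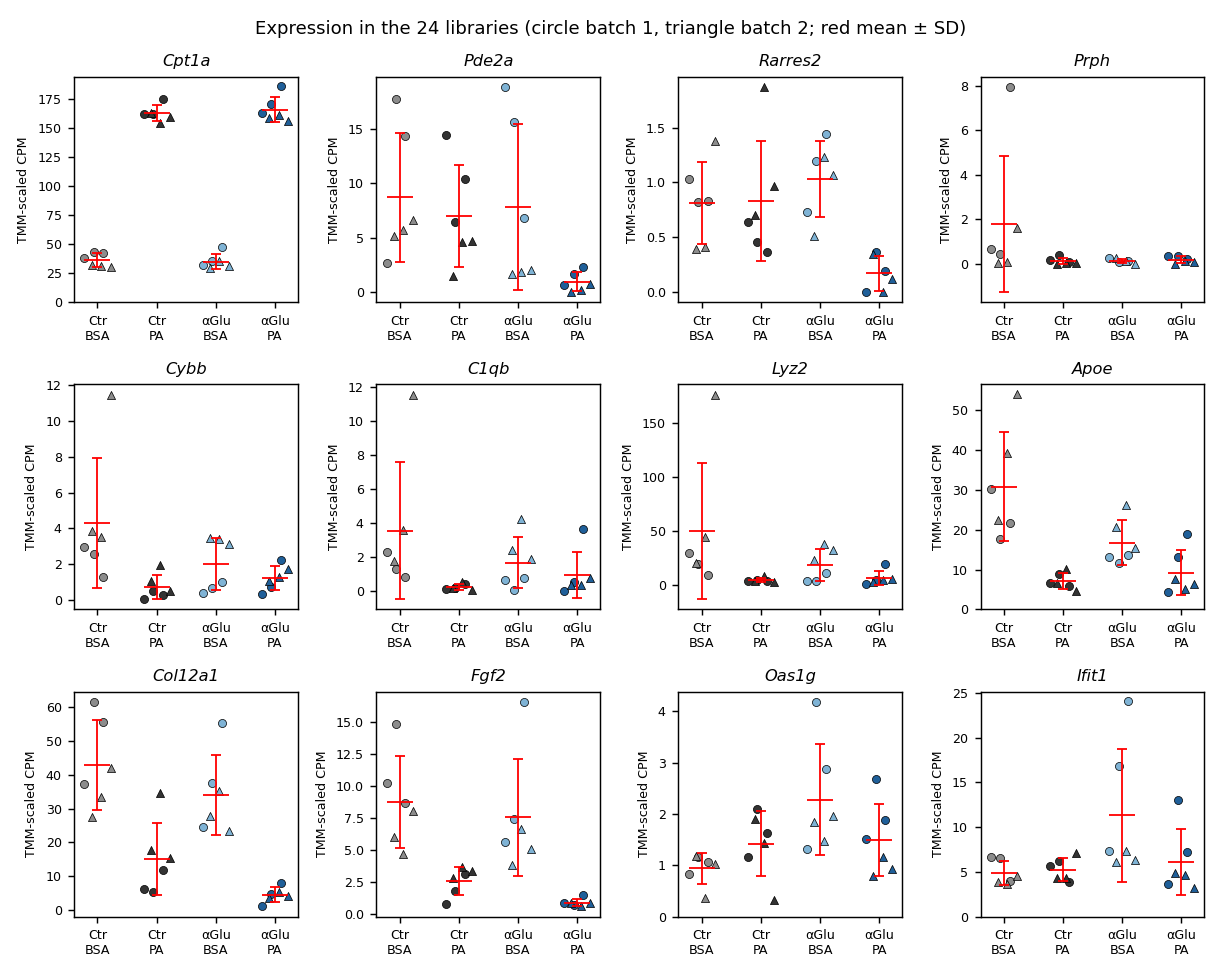
CPM (vertical axes, linear, a scale for each gene) of 12 genes in the 24 libraries by group, with circles for batch 1, triangles for batch 2 and the group mean ± SD (n = 6) in red. Cpt1a took the same levels in both arms, Pde2a and Rarres2 were low in αGlu PA, and a single Ctr BSA library stood far above its group in Cybb (11.5 CPM, S21) and Prph (7.93 CPM, S9).

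Beyond macrophage genes, the named positive genes were few and low. Prph, which encodes peripherin, an intermediate filament of peripheral neurons, had the largest difference among them, 4.09 (SE 1.29, unadjusted p 0.00409). It was at 7.93 CPM in 1 Ctr BSA library, S9, with a group median of 0.542, and at no more than 0.390 CPM in any library of the other groups. Without S9 its difference was 2.92 and it was still called. Gsdmc4, a gasdermin C family gene, differed by 1.498 and had medians of 0.815 and 0.219 CPM in Ctr cells, BSA first, and 0.657 and 0.371 in αGlu cells. Gasdermin C genes are near-identical copies, so its reads may be shared with its neighbours. Magee2, a MAGE family gene, differed by 1.56. The non-coding transcripts Gm9899 and Gm9967 differed by 1.78 and 1.26, and they lie opposite Kcnk3 and Gdpd3. Whether the counting used strand is not stated, so reads of such partners may be mixed.

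The 36 called genes with a negative difference mostly fell with PA in αGlu cells and were split by sign in Ctr cells. In αGlu cells 35 had a negative PA response and 22 were called as lowered. In Ctr cells 16 had a negative and 20 a positive response, with 11 called as lowered and 5 as raised. The median response was 0.09 in Ctr and −1.52 in αGlu cells. As for the positive genes, these responses are parts of the measurement that chose the genes. Of all 104 called genes, 97 had the same sign in both batches, 65 positive and 32 negative, in the libraries that had chosen them. After omission of each library in turn, 26 remained called in all 24 fits, 12 positive and 14 negative.

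Pde2a, a phosphodiesterase that cleaves both cyclic AMP and cyclic GMP, had the smallest p of the called genes (chr7:101421691-101512827, plus strand). It ran from 2.71 CPM through a median of 6.17 to 17.7 in Ctr BSA and from 1.45 through 5.53 to 14.4 in Ctr PA. In αGlu cells it ran from 1.62 through 4.43 to 18.8 with BSA and from 0 through 0.724 to 2.32 with PA. Only the αGlu PA group was low, and its highest library, S8, overlapped the lowest libraries of Ctr PA and αGlu BSA. Pde2a fell by 2.90 with PA in αGlu cells (SE 0.507, adjusted p 0.000129, edgeR), and its response in Ctr cells was −0.49 (SE 0.427, adjusted p 0.416). The difference was −2.41 (SE 0.661, unadjusted p 0.00125, adjusted p 0.999). It was −2.98 for batch 1 and −1.78 for batch 2, and the omission of single libraries gave −2.70 to −2.13. The predicted gene Gm45837 covers part of Pde2a on the same strand, so some reads could have been assigned to either.

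Rarres2 (chr6:48569696-48572789, minus strand) encodes chemerin, an adipokine that attracts macrophages and dendritic cells. Its lowest, median and highest values were 0.395, 0.825 and 1.38 CPM in Ctr BSA, 0.364, 0.672 and 1.87 in Ctr PA, and 0.513, 1.13 and 1.44 in αGlu BSA. In αGlu PA they were 0, 0.157 and 0.366. The αGlu groups did not overlap, whereas the Ctr groups did. Rarres2 fell by 2.55 in αGlu cells (adjusted p 0.00144) against a response of 0.01 in Ctr cells (adjusted p 0.994, both by edgeR), and its difference was −2.56 (SE 0.757, unadjusted p 0.00249). At a mean of 18.8 counts per library these are small numbers of reads.

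Fgf2, a fibroblast growth factor (chr3:37348346-37410108, plus strand), fell with PA in both arms and further in αGlu cells. Its medians were 8.37 CPM with BSA and 2.996 with PA in Ctr cells, and 6.18 and 0.850 in αGlu cells. The treatments did not overlap in either arm. The fall was 1.66 in Ctr (adjusted p 0.000516) and 3.05 in αGlu cells (adjusted p 1.12e-06, both by edgeR), and the difference was −1.39 (SE 0.480, unadjusted p 0.00794), with −0.76 in batch 1 and −1.79 in batch 2. Fgf2 overlaps Nudt6 on the opposite strand.

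Plcd4, a phospholipase C, differed by −1.40, with medians of 0.410 and 0.838 CPM in Ctr BSA and Ctr PA and 0.806 and 0.427 in αGlu BSA and αGlu PA, so the medians were ordered oppositely in the arms. Neither arm's PA response passed an adjusted p of 0.05. Gm42463, an intronic transcript within Tdrkh on the same strand, had medians of 1.24, 1.18, 1.74 and 0.850 CPM in the same order, and its αGlu groups did not overlap. Its difference was −1.32 over all libraries, −1.29 in batch 1 and −1.34 in batch 2. Other transcripts shared the form: the long non-coding RNA Gm15608 differed by −1.51, and Gm20695, which spans Naa60 and Cluap1 on the same strand and may take their reads, by −1.76.

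**Figure D5:**
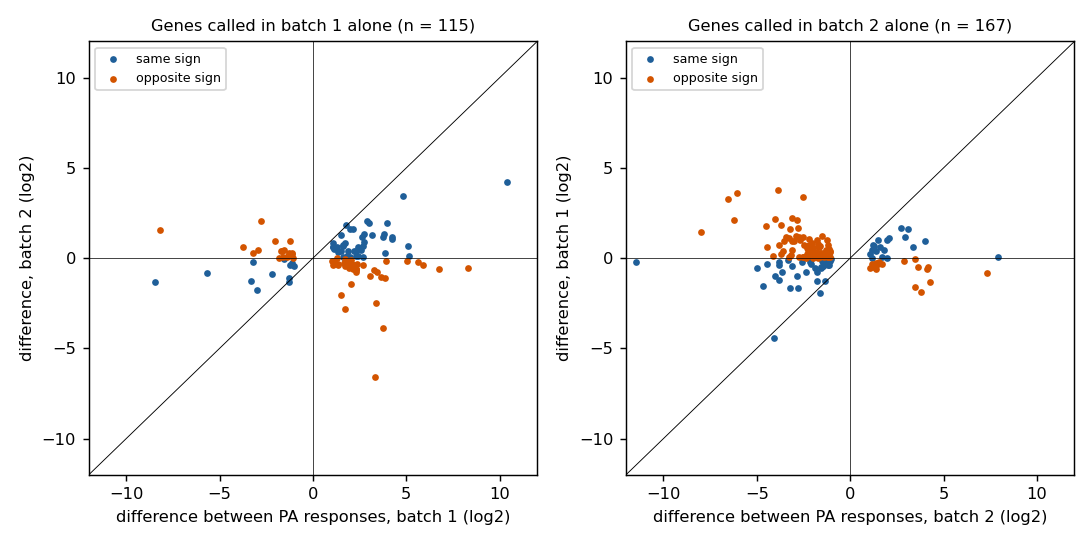
Difference between the PA responses (log2) in the batch where genes were called (horizontal axes) and in the other batch (vertical axes), for 115 genes called in batch 1 (left) and 167 called in batch 2 (right), with blue for the same and orange for the opposite sign. Blue points make up 55 of 115 and 63 of 167, and most points lie near 0 on the vertical axis.

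Each batch gave an estimate that the other had not chosen. Fitted alone, batch 1 called 115 genes (0.723%), of which 55, or 47.8%, had the same sign in batch 2. Batch 2 called 167 (1.05%), of which 63, or 37.7%, had the same sign in batch 1. Among all genes tested 56.2% had the same sign, a larger share than for the called genes of either batch. Only Gm42463 was called in both batches with the same sign. Col3a1, Hmcn1, Olfml3 and Eln were called in both with opposite signs, and all of them build or organize the extracellular matrix.

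Several gene lists had opposite signs in the batches. Besides the glial and acinar genes above, 15 of 24 endothelial genes were positive in batch 1 and 5 in batch 2, and the extracellular matrix is described here as the longest such list. The 73 tested genes had a median PA response of −1.52 in Ctr and −1.84 in αGlu cells, and PA passed the adjusted threshold for 50 and 52 of them. The median difference was −0.19, with 1 positive gene (Tgfbi) and 4 negative genes (Col12a1, Col8a1, Col5a2 and Nid1) at an unadjusted p below 0.05, beside 1.06% and 1.03% of all genes, and all of these were called, beside 0.427% and 0.226%. Omission of single libraries gave medians from −0.37 (without S8) to 0.02 (without S18). Without S4 and S8 the median was −0.73, with 17 genes negative and 0 positive at an unadjusted p below 0.05 (edgeR). In batch 1 59 of 73 were positive (median 0.29), and in batch 2 14 were (median −0.89). A fit with a separate interaction for each batch, made after this was seen, compared the batches gene by gene. None of the genes reached an adjusted p below 0.05 for batch 1 minus batch 2, and the smallest adjusted p was 1. At an unadjusted p below 0.05 there were 263 genes, 160 of them positive (1.01%).

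Col3a1, the chain of type III collagen, shows the split library by library. In batch 1 it was at 7.27–55.3 CPM in Ctr BSA and 1.52–4.70 in Ctr PA, and at 3.799–50.9 in αGlu BSA and 0.574–67.3 in αGlu PA. In batch 2 it was at 19.4–46.7 CPM in Ctr BSA and 5.50–12.4 in Ctr PA, and at 8.51–441 in αGlu BSA and 1.08–3.87 in αGlu PA. The highest αGlu values were S8 with PA in batch 1 and S18 with BSA in batch 2. The difference was 3.76 in batch 1, −3.88 in batch 2 and 0.56 (−2.69 to 3.81) over all libraries, and the batches differed by 7.64 (SE 2.58, adjusted p 1). Hmcn1, the basement membrane protein hemicentin, differed between the batches by 9.90 and Eln, elastin, by 5.90.

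Col12a1 encodes type XII collagen, which sits on the surface of collagen fibrils (chr9:79598991-79718831, minus strand). It lay at 27.6, 39.6 and 61.6 CPM (lowest, median and highest) in Ctr BSA and at 5.32, 13.6 and 34.6 in Ctr PA. With αGlu it lay at 23.4, 31.6 and 55.3 with BSA and at 1.08, 4.60 and 7.95 with PA. The αGlu groups did not overlap and the Ctr groups overlapped through S19, the highest Ctr PA library. PA lowered Col12a1 by 1.52 in Ctr (adjusted p 0.00289) and 2.91 in αGlu cells (adjusted p 6.61e-06, both by edgeR). The difference was −1.39 (SE 0.529, unadjusted p 0.0148), −0.35 in batch 1 and −2.09 in batch 2.

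The other negative matrix genes had a negative difference in batch 2 only. Col8a1, a short-chain collagen of vessel walls, gave 0.04 in batch 1 and −2.75 in batch 2, Col5a2, a type V collagen chain, 0.06 and −2.50, and Nid1, the laminin-binding protein nidogen, 0.17 and −2.17. Col5a2 reached 133 CPM in the Ctr PA library S19, against a group median of 46.2 and a highest value of 26.3 in αGlu PA. Without S19 its difference was −0.95. Tgfbi, a secreted matrix protein also made by myeloid cells, went the other way, with 3.8 over all libraries, 5.61 in batch 1 and −0.22 in batch 2. Its level was 12.02 CPM in S21 against a Ctr BSA median of 1.01, and 7.27 in S4 against an αGlu PA median of 0.277. Without S4 its difference was 1.60, and Tgfbi was no longer called when S4 or S21 was left out. Has2, a hyaluronan synthase named after its values were seen, differed by −2.77, −1.23 in batch 1 and −3.803 in batch 2. The 22 fibroblast and stellate cell genes had no gene at an unadjusted p below 0.05 and a median of −0.10.

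Interferon-stimulated genes had mostly negative differences of small size. These genes are induced when cells sense foreign or misplaced nucleic acids, and many of their products restrict viruses. Of 66 tested, 6 had a negative difference at an unadjusted p below 0.05 (9.09%, beside 1.03% of all genes) and 0 a positive one, and 15 of 66 were positive. The median difference was −0.17, with −0.14 and no such gene in batch 1 alone and −0.27 and 12 such genes in batch 2 alone. The median PA response was −0.24 in Ctr and −0.53 in αGlu cells. The arms also differed within each treatment: with BSA 63 of 66 lay higher in αGlu than in Ctr cells (median 0.47), and with PA 61 did (median 0.25). Leaving out 1 library gave medians from −0.30 with 13 negative genes (without S4) to −0.09 with 3 (without S6), and leaving out S4 and S8 gave −0.40 with 16.

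Ifit1, an interferon-induced protein that binds foreign RNA ends, shows the form (chr19:34640871-34650009, plus strand). It lay at 3.68, 4.26 and 6.70 CPM in Ctr BSA and at 3.86, 4.999 and 7.12 in Ctr PA. It lay at 6.07, 7.37 and 24.1 in αGlu BSA (highest S6) and at 3.26, 4.77 and 13.01 in αGlu PA (highest S4). The αGlu BSA group was the high one, and it overlapped each of the others only at the edges or through S4. Ifit1 fell by 0.85 with PA in αGlu cells (adjusted p 0.0270) against a response of 0.15 in Ctr cells (adjusted p 0.731, both by edgeR), and its difference was −1.004 (unadjusted p 0.0215). Oas1g, an oligoadenylate synthetase whose paralogues share sequence with it, differed by −1.21 (SE 0.474, unadjusted p 0.0178), with −1.12 in batch 1 and −1.35 in batch 2. Its level in αGlu BSA lay 1.22 above that in Ctr BSA on the log2 scale and its level in αGlu PA 0.02 above that in Ctr PA. Ifih1, the double-stranded RNA sensor MDA5, differed by −0.40 (SE 0.143, unadjusted p 0.0106) and Eif2ak2, the double-stranded RNA-activated kinase PKR, by −0.33 (SE 0.131, unadjusted p 0.0194). Both were well measured, at means of 731 and 894 counts per library, and neither was large enough to be called.

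The 16 chemokine and myeloid growth factor genes had no gene at an unadjusted p below 0.05 and a median of −0.05. They ranged from −0.86 for Ccl2, which attracts monocytes, to 2.89 for Cxcl14, a chemokine made by stromal and epithelial cells. PA passed the adjusted threshold for 8 of the 16 in Ctr and 7 in αGlu cells.

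A pair of called transcripts followed the library that was rich in ribosomal RNA. CT010467.1, an rRNA gene, differed by 1.40 (unadjusted p 0.0349) and Rn7s2, the 7S RNA of the signal recognition particle, by 1.87 (unadjusted p 0.0309). Both were highest in S1, at 186850 and 1038 CPM against Ctr BSA medians of 17603 and 52.9. Without S1 the differences were 0.40 and 0.25. When all rRNA genes were left out of the counts, 65 positive and 40 negative genes were called in place of 68 and 36, and the macrophage median kept its value of 1.83.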

How the data were processed

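Total RNA of 24 islet cell libraries was sequenced with a stranded mRNA kit. Per the labels and the submitters' processing notes, the authors made a table of raw gene counts with the QIAGEN RNA-seq Analysis Portal 5.1 on GRCm38, and the deposited counts of 41549 genes were used as they stand. The aligner, the gene annotation and the strand setting were not given in the sources used here. Coordinates were taken from GENCODE M21, which held 41474 of the gene identifiers. The libraries held 18214719–35001979 counts.

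Genes were filtered with filterByExpr, scaled by TMM and fitted with edgeR 4.0.16 (R 4.3.3) by quasi-likelihood on the 4 groups with batch as a covariate, after the procedure had been tested on simulated data. All tests were two-sided F-tests, and adjusted p-values are Benjamini-Hochberg values over 15916 genes. Intervals are 95% intervals from the SE of the fit. DESeq2 1.42.0 and limma 3.58.1 served as alternatives, beside other scalings, filters and sets of libraries. The study describes the replicates as independent experiments with all groups from the same animal, but no label says which libraries share one, so the fit was unpaired.

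The comparison and the gene lists were chosen with earlier results of these data known. Named genes were the 8 called genes of smallest p in each direction, provided that the batches shared the sign and the mean reached 10 counts, the 4 leading PA genes in each direction, genes the study followed, and up to 3 genes of each list below an unadjusted p of 0.05. Genes named beyond this rule were chosen after their values were seen.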

Additional observations from a re-analysis of the deposited data

Results flagged for a closer look

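In 22 of 340 sets of 6 libraries (a gene or list score in a group), 1 library lay so far from the rest that the ratio of its gap to the range exceeded Dixon's critical value at 95%, which chance alone does in about 1 of 20 sets. The Ctr BSA library S21 accounted for several immune genes as the highest of its group, with ratios of 0.755 for H2-Aa, 0.638 for Cd74, 0.781 for Tgfbi, 0.699 for Csf1r and 0.747 for the MHC class II score. The differences of H2-Aa, Cd74 and Csf1r shrank when S21 was left out, and Tgfbi was no longer called. The effect of S21 was wider than these genes, since 41 of the 104 calls were lost without it. The part of its cell make-up in other differences was not tested. The Ctr BSA library S1, rich in ribosomal RNA, was highest for Rn7s2 (0.671) and for the score of mitochondrial ribosomal proteins (0.629), and lowest for Clcn3 (0.75). The Ctr PA library S23, which had the lowest quality weight in limma (0.168), was highest for Clcn3 (0.767) and for the score of mitochondrially encoded transcripts (0.792), and lowest for Csf1r (0.647) and Oas1g (0.667).

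The other values were scattered. S8 was lowest in αGlu PA for Gm9967 (0.804), S4 for the endoplasmic reticulum stress score (0.665). In αGlu BSA, S10 was highest for Gm20695 (0.797) and lowest for the score of PA-raised genes (0.629), S14 was highest for Gm9967 (0.678), S18 for Olfml3 (0.664), and S22 was lowest for Col4a3 (0.757). In Ctr PA, S15 was lowest for Plcd4 (0.665) and S19 highest for Hmcn1 (0.725). In Ctr BSA, S17 was lowest for Oas1g (0.692).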

How the results depend on the processing

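The number of genes at an adjusted p below 0.05 was 0 in every alternative fit of all or some libraries, except that 1 gene passed in batch 2 alone without the filter on low counts (332 at an unadjusted p below 0.05 in edgeR, 340 in DESeq2), so no gene was called with an absolute difference above 1 by the adjusted criterion (0 against 104). The count of called genes was 668 without the filter on low counts, 164 in batch 2 alone (114 in batch 1), where the filter was applied to each batch's own libraries and not, as for the 115 and 167 above, to all 24, and 163 without αGlu PA libraries S4 and S8. It ranged from 88 (without S2) to 144 (without S9) over single omissions. The balance of signs depended on the setting: of the called genes 68 were positive and 36 negative, against 32 and 132 in batch 2 alone, 82 and 32 in batch 1 alone, 36 and 71 with quality weights in limma, 42 and 63 without S8, 44 and 119 without S4 and S8, 44 and 72 without S8 and S21, and 58 and 88 without Ctr BSA libraries S9 and S21. The pairs of libraries and the removal of rRNA genes were chosen after seeing the data. DESeq2 (75 and 42) and upper-quartile scaling (72 and 33) kept it. Without a batch term there were 41 and 34.

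The share of PA-responsive genes with a smaller response in αGlu cells, 47.2% (Wilson 95% interval over genes 43.9–50.5, counting error only), was 50.6% without the filter, 64.0% in batch 1, 42.7% in batch 2, 33.0% without S4 and S8, 39.9% without S8 and S21 and 51.1% when PA-responsive genes of any size were taken. Single omissions gave 39.2% (without S8) to 55.8% (without S18). The sign of the difference reversed for Tgfbi in batch 2 (−0.226) and without S4 and S8 (−0.0561), and in batch 1 for Col8a1 (0.0413), Col5a2 (0.0632) and Nid1 (0.172). In the 33 named genes that were called, 1097 of 1282 other values were called with the same sign and 180 were no longer called. The same-sign share of genes called in batch 1 and in batch 2 was 51.5% and 44.6% without the filter and 49.5% and 39.4% with a stricter one. The causes of these changes were not tested.

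No paired analysis was possible from the labels because the groups share no replicate numbers. A replicate block of 6 sets of 4 consecutive libraries, assumed from the numbering after seeing the data, gave 115 called genes (70 positive, 45 negative, 87 shared), 525 genes at an unadjusted p below 0.05 and a share of 50.3%; the macrophage median was 1.47 with 10 genes called, and Tgfbi, Lyz2, CT010467.1 and Rn7s2 were no longer called. Deviations from the group means correlated at 0.146–0.663 within these sets, and 15 of 24 libraries correlated best with one of their own set. The mean correlation was 0.437 within sets and −0.114 between them. Batch was not removed first and each set lies within 1 batch, so these values do not separate sets from batches. Depth limits the low genes most: the median called gene had 18.5 counts.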

Other observations

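Several genes that the study followed were too low to be tested, and their counts show how 1 library can fill a group. Vip, a neuropeptide of pancreatic nerves, had 383 counts in S9, 85 in S21 and 37 in S1, all Ctr BSA, and 2 in S24 (αGlu PA), and none in the other 20 libraries. S9 was also the library with the high Prph value. Mmp3, a matrix metalloproteinase, had 929 counts in S21 of 933 in all of Ctr BSA and 15 in αGlu PA, of which 10 were in S8 and 5 in S4, against 0 in Ctr PA and 1 in αGlu BSA. Serpina3g, a serine protease inhibitor of immune cells, had 72 counts in S21 of 74 in Ctr BSA and 13 in αGlu PA, against 1 in Ctr PA and 2 in αGlu BSA. Npffr2, a neuropeptide FF receptor, summed to 0 counts with BSA and 15 with PA in Ctr cells and to 12 and 7 in αGlu cells, and Wnt6, a secreted signalling protein, to 4 and 26 in Ctr and 4 and 1 in αGlu cells.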
